A study of Mus musculus with 8 samples.

Results

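The endosomal Toll-like receptors Tlr7, Tlr8, Tlr9 and Tlr3, with Unc93b1, were examined in spleen cells of male mice. Every probe set that the platform annotation assigns to exactly 1 of these 5 symbols was taken, which gave 8 of the 45101 probe sets on the array. Tlr7 had 3 probe sets, Tlr3 had 2, and Tlr8, Tlr9 and Unc93b1 had 1 each. The 4 B6.SB-Yaa/J samples carry the Yaa mutation on the Y chromosome, and the 4 C57Bl/6J samples are wild type. All mice were male, 8 weeks old and untreated as far as the labels say. Each sample was 1 spleen, except that Yaa 3 pooled 2. The spleens were teased into cell suspensions, red cells were lysed, and total RNA was hybridised to 1 Affymetrix array per sample. No genotype other than the strain names was given, so differences between the strains outside the Y chromosome cannot be told apart from an effect of Yaa.

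Endosomal Toll-like receptors bind nucleic acids taken up into the endosomes of B cells, dendritic cells and macrophages. Tlr7 and Tlr8 are receptors for single-stranded RNA, Tlr9 for DNA with unmethylated CpG, and Tlr3 for double-stranded RNA. Unc93b1 is the membrane protein that carries these receptors from the endoplasmic reticulum to endosomes. Yaa is known as a translocation of the end of the X chromosome onto the Y, so that males have a further copy of the genes there, Tlr7 and Tlr8 among them. It is known for accelerating lupus-like autoimmunity in susceptible strains. Tlr9, Tlr3 and Unc93b1 lie on mouse chromosomes 9, 8 and 19 and are outside that segment.

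The RefSeq promoter table (GRCm38.p6) held windows for 3 of the 5 genes. The 250 bases before the start are shown for Tlr8, the receptor of the copied segment, and for Tlr9, an autosomal relative. The Tlr8 window is chrX:167264330-167264579 on the minus strand and the Tlr9 window is chr9:106222348-106222597 on the plus strand. Capitals mark matches on either strand to 3 motifs: AANNGAAA, the core bound by interferon regulatory factors, TGANTCA, the AP-1 site, and TATAAA, the TATA box.
Tlr8: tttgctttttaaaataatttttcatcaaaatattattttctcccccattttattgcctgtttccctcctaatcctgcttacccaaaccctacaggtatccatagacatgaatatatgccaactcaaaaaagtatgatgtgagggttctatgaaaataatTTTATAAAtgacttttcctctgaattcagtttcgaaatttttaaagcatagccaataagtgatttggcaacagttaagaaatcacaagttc
Tlr9: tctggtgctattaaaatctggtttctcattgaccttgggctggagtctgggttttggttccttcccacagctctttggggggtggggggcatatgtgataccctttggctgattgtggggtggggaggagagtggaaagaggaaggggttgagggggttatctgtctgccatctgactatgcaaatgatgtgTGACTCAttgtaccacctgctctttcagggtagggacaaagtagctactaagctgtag
The Tlr8 window held the TATAAA letters on both strands in overlapping matches that begin 91 and 89 bases before the start. The Tlr9 window held 1 AP-1 match, 58 bases before the start. Neither window held the AANNGAAA core. Over all 32851 windows of the table cut to the same length, 21.3% held AANNGAAA, 6.75% TGANTCA and 12.4% TATAAA. These are matches of letters only.

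The arrays differed in ways that touch the members. The trimmed mean signal was lowest in Yaa 3, at 67.9% of the median over the 8 arrays, and highest in wild type 2, at 123%, so arrays were quantile normalised. Yaa 3 also stood apart in its markers, although it is labelled as spleen cells like the rest. The mean log2 signal of 9 tested B cell markers was 5.71 in Yaa 3 and 10.19 to 10.95 in the other Yaa samples, against 10.25 to 10.65 in wild type. Ms4a1, which encodes CD20, had a normalised signal of 0.865 in Yaa 3 and of 3356 to 5973 in the other Yaa samples. The 7 T cell markers averaged 5.56 in Yaa 3 and at least 9.03 in the other Yaa samples, against 8.87 to 9.49 in wild type, and the CD3 subunit gene Cd3e had a signal of 6.61 in Yaa 3. The member differences, except that of Tlr3 1422781_at, and the list medians stated below are therefore also given without Yaa 3. In such bulk samples, fewer cells of a type and less RNA per cell cannot be told apart.

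Of the 8 member probe sets, 6 lay above the median of mean log2 signal and were tested. Their wild-type means alone were also above it. Both Tlr3 probe sets lay below. For Tlr3 1422782_s_at the wild-type mean alone, 5.49, was above the filter of 5.38, and the Yaa mean, 5.02, was below it. That probe set was therefore left out through its Yaa values. Over all 22518 tested probe sets, limma called 0.00444% higher and 0% lower at an adjusted p under 0.05, and 0 of the 6 member probe sets were called. At an unadjusted p under 0.05, 4 of the 6 were higher, all from Tlr7 and Tlr8, where 2.97% of all tested probe sets were. After normalisation the groups did not overlap, with Yaa higher, for 3 of the 6, where 2.43% of all tested probe sets did so. In the values as deposited, only Tlr8 of these 3 stayed without overlap.

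**Figure D1:**
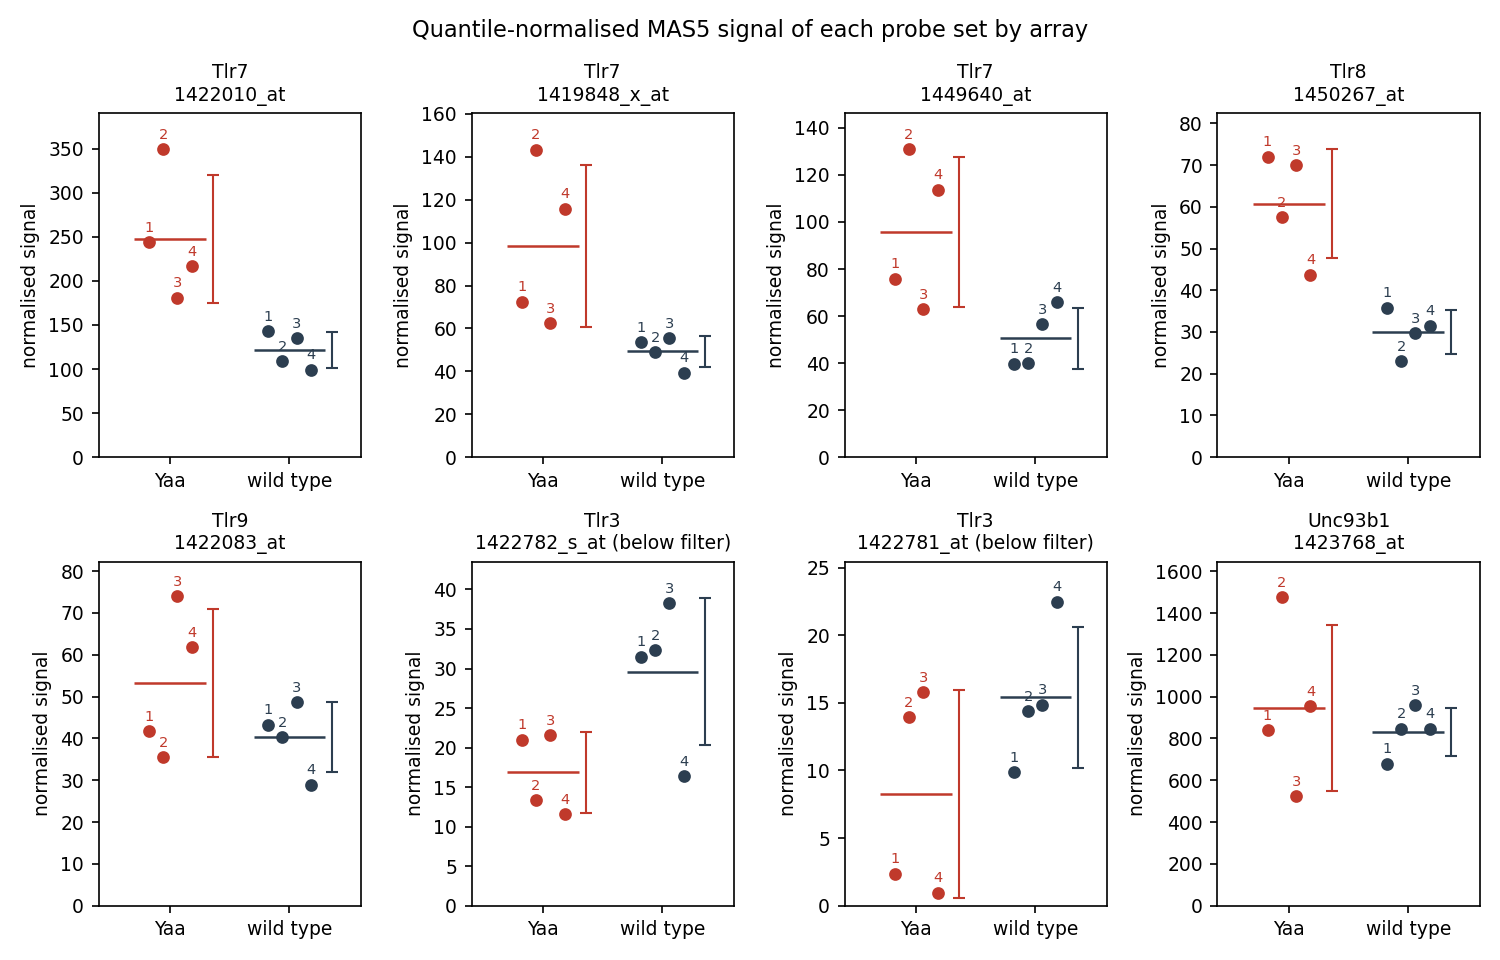
Quantile-normalised MAS5 signal (linear axis from 0) of the 8 probe sets in each array, with the replicate number above each point, the group mean as a line and the SD as a bar (n = 4 per group). For Tlr7 probe set 1422010_at and for Tlr8 all 4 Yaa arrays lie above all 4 wild-type arrays, whereas for Tlr9 and Unc93b1 the groups overlap.

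Tlr7 was higher in Yaa on all 3 of its probe sets. Its brightest, 1422010_at, had normalised signals of 244, 349, 181 and 217 in Yaa 1 to 4, against 143, 109, 135 and 99.4 in wild type 1 to 4. All Yaa arrays were above all wild-type arrays, and Yaa 3, the sample with few lymphocyte transcripts, was the nearest to wild type. The mean signal was 248 ± 72.3 in Yaa and 121 ± 20.7 in wild type (SD, n = 4 each), a ratio of means of 2.04. On the log2(signal + 16) scale, where all further differences are given, the means were 8.00 ± 0.38 in Yaa and 7.09 ± 0.22 in wild type (SD, n = 4 each). The log2 difference was 0.91 ± 0.21 (SE), a fold of 1.88 with a 95% interval of 1.36 to 2.60. A fold of 2, as 1 further gene copy of equal output would give in signal, lies inside that interval. The added 16 shrinks folds on this scale, and the part of gene copy number in the difference was not tested. limma's adjusted p was 0.553, with the 65th smallest p of all tested probe sets, and the two-sided exact permutation p was 0.0286, the smallest that 4 against 4 allows. With limma array weights the log2 difference was 0.95 and the adjusted p 0.0196, a call that 0.453% of all tested probe sets shared in the higher direction. The weights of Yaa 1 to 4 were 2.23, 0.218, 0.223 and 1.13, so that fit rested mostly on Yaa 1 and Yaa 4 within the Yaa group.

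The other Tlr7 probe sets, 1419848_x_at and 1449640_at, are listed under the same sequence record, so they share a target. 1419848_x_at had signals of 72.6, 143, 62.3 and 116 in Yaa, against 53.6, 48.8, 55.4 and 39.4 in wild type. 1449640_at had 75.9, 131, 62.8 and 114 in Yaa, against 39.8, 40.0, 56.5 and 65.8 in wild type. The groups did not overlap for the first and overlapped for the second, where Yaa 3 lay below wild type 4. After normalisation the log2 differences of 1419848_x_at and 1449640_at were 0.76 ± 0.23 and 0.72 ± 0.23 (SE; limma adjusted p = 0.880 and 0.920). Without Yaa 3 they were 0.93 ± 0.21 and 0.89 ± 0.22 (SE; limma adjusted p = 0.383 and 0.424). Without Yaa 2 they were 0.58 ± 0.21 and 0.58 ± 0.22 (SE; limma adjusted p = 0.501 and 0.522). Yaa 2 was the highest and Yaa 3 the lowest of the Yaa arrays on all 3 Tlr7 probe sets.

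Tlr7 kept its sign with single arrays left out. Without Yaa 3 the log2 difference of 1422010_at was 1.04 ± 0.19 (SE; limma adjusted p = 0.243), and without Yaa 2 it was 0.75 ± 0.17 (SE; limma adjusted p = 0.256). Without both it was 0.85 ± 0.17 (SE; limma adjusted p = 0.0656). In the values as deposited, 1422010_at had 258, 374, 116 and 192 in Yaa, against 141, 139, 130 and 107 in wild type. There Yaa 3 lay among the wild-type arrays, and the log2 difference was 0.69 (limma adjusted p = 0.796). Without normalisation the median difference over the tested probe sets was -0.20, and with median-centred arrays it was -0.11. Relative to the array-wide median, the difference was 0.88 with both. These 2 values must match, since centring only shifts every probe set of an array by the same amount.

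Tlr8, the neighbour of Tlr7 on the X chromosome, was also higher in Yaa. Its probe set 1450267_at had signals of 72.0, 57.5, 69.9 and 43.7 in Yaa, against 35.9, 22.9, 29.7 and 31.5 in wild type. The groups did not overlap, and Yaa 4 was the Yaa array nearest to wild type. The mean was 60.8 ± 13.0 in Yaa and 30.0 ± 5.37 in wild type (SD, n = 4 each), a ratio of means of 2.03. The log2 difference was 0.73 ± 0.17 (SE), a fold of 1.66 with a 95% interval of 1.26 to 2.18 (limma adjusted p = 0.597; two-sided exact permutation p = 0.0286). The signal is low enough for the added 16 to shrink the fold, and with log2(signal + 1) the log2 difference was 0.99. The wild-type mean was close to that of the brighter Tlr3 probe set, 29.6. With no detection calls used, a signal this low does not show whether Tlr8 was detected in wild type. Without Yaa 3 it was 0.69 ± 0.19 (SE; limma adjusted p = 0.483). Unlike Tlr7, Tlr8 was not lowest in Yaa 3 among the Yaa arrays.

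Tlr9 gave no difference beyond the spread between arrays. Its signals were 41.7, 35.5, 73.9 and 61.7 in Yaa, against 43.3, 40.3, 48.6 and 29.0 in wild type. The groups overlapped: Yaa 3 and Yaa 4 lay above all wild-type arrays and Yaa 1 and Yaa 2 among them. The means were 53.2 ± 17.8 in Yaa and 40.3 ± 8.29 in wild type (SD, n = 4 each). The log2 difference was 0.28 ± 0.21 (SE), a fold of 1.21 with a 95% interval of 0.866 to 1.69 (limma adjusted p = 0.997; exact permutation p = 0.257). Without Yaa 3 it was 0.14 ± 0.20 (SE; limma adjusted p = 0.838). After normalisation Tlr9 was highest in Yaa 3, the array in which the B cell markers were lowest. The values as deposited were 43.8, 39.5, 47.8 and 55.4 in Yaa 1 to 4. In wild type 1 to 4 they were 41.9, 49.4, 46.0 and 31.1. There Yaa 4 was the highest, and Yaa 3 lay below wild type 2. The part of cell makeup in the Tlr9 values was not tested.

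Unc93b1, the transporter all 4 receptors need, did not differ detectably between the groups. Its signals were 838, 1477, 523 and 954 in Yaa, against 679, 846, 959 and 846 in wild type. Yaa 2 was the highest and Yaa 3 the lowest of the 8 arrays, so wild type lay inside the range of Yaa. The means were 948 ± 397 in Yaa and 833 ± 115 in wild type (SD, n = 4 each). The log2 difference was 0.10 ± 0.28 (SE), a fold of 1.07 with a 95% interval of 0.694 to 1.66 (limma adjusted p = 0.997; exact permutation p = 0.857). Its sign turned without Yaa 2, at -0.14, with the values as deposited, at -0.13, and with median-centred arrays, at -0.04. Without Yaa 3 the difference was 0.35 ± 0.20 (SE; limma adjusted p = 0.716). B cell markers were likewise highest in Yaa 2 (10.95) and lowest in Yaa 3 (5.71), and their part in the Unc93b1 values was not tested.

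Tlr3 had signals near the floor that the added 16 sets. 1422782_s_at had 21.0, 13.4, 21.5 and 11.6 in Yaa, against 31.5, 32.3, 38.3 and 16.4 in wild type. 3 of the 4 wild-type arrays were above all Yaa arrays, and wild type 4 lay among them. The log2 difference was -0.46, with a two-sided exact permutation p of 0.0857. In a limma fit of all probe sets with no filter, its 95% interval was -0.95 to 0.03 (limma adjusted p = 0.989). Leaving out Yaa 3 gave -0.54 (exact permutation p = 0.0857), and leaving out wild type 4 gave -0.61 (exact permutation p = 0.0286). The other Tlr3 probe set, 1422781_at, had 2.36, 13.9, 15.8 and 0.946 in Yaa, against 9.87, 14.4, 14.9 and 22.5 in wild type, and its log2 difference was -0.41 (exact permutation p = 0.229). Signals this low do not show whether Tlr3 was detected, and no detection calls were used here.

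**Figure D2:**
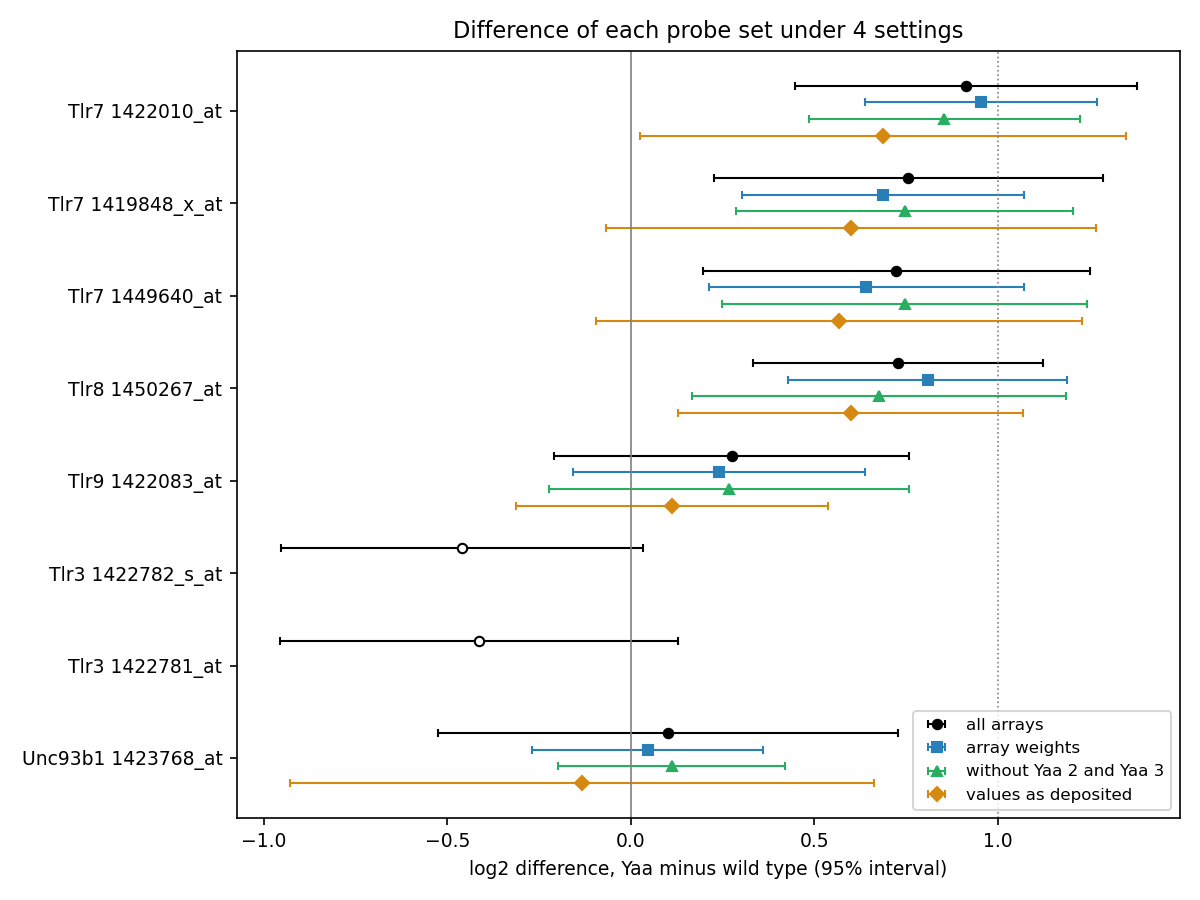
Log2 difference (Yaa minus wild type) of each probe set with its 95% limma interval, for all arrays, array weights, without Yaa 2 and Yaa 3, and the values as deposited; open points are the Tlr3 probe sets, from the fit with no filter. The dotted line at 1 marks a fold of 2. The Tlr7 and Tlr8 estimates lie to the right of 0 under all 4 settings, with 2 Tlr7 intervals reaching 0 for the values as deposited, and the Tlr9, Tlr3 and Unc93b1 intervals include 0.

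Whether the Tlr7 difference itself differed from those of the other members was tested within arrays, by subtracting the log2 signal of the other gene from that of Tlr7 in each array and permuting the group labels. There were 4 such comparisons. The Tlr7 difference exceeded that of Tlr3 by 1.37 and that of Unc93b1 by 0.81. Both had a two-sided exact permutation p of 0.0286, which is 0.0571 when adjusted over the 4 comparisons and so does not pass a threshold of 0.05. For Tlr7 less Unc93b1, the values were -1.72, -2.03, -1.45 and -2.06 in Yaa, against -2.13, -2.79, -2.69 and -2.90 in wild type, without overlap. Leaving out any 1 Yaa array took the unadjusted exact permutation p for Unc93b1 to 0.0571, and leaving out wild type 2 or wild type 3 did so for Tlr3. For Tlr9 the excess was 0.64 (exact permutation p = 0.171, adjusted 0.229). Without Yaa 3 it was 0.90 (exact permutation p = 0.0286). In Yaa 3 Tlr7 was the lowest of the Yaa arrays and, after normalisation but not as deposited, Tlr9 the highest. The excess over Tlr3 was 1.59 without Yaa 3 (exact permutation p = 0.0286). For Tlr8 it was 0.18 (exact permutation p = 0.514, both raw and adjusted), and 0.0092 with log2(signal + 1). A difference between these 2 neighbouring receptors was not detectable with these arrays.

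Tlr7 and Tlr8 lay between genes that were also higher in Yaa. Of the 11 other segment genes listed, 8 were tested, and all 8 were higher in Yaa, with a median log2 difference of 0.70 (0.82 without Yaa 3, with 8 of 8 higher), where the median over all 10340 tested genes was -0.02. limma called 0 of the 8, and 7 had an unadjusted p under 0.05, where 2.97% of all tested probe sets were higher at that threshold. With array weights, where Yaa 2 and Yaa 3 counted least, limma called 5 of the 8. Of all tested probe sets, 0.453% were called higher with these weights. On the Tlr8 side, Tmsb4x (an actin-binding peptide), had 0.27 ± 0.07 (SE), and on the Tlr7 side Prps2, of nucleotide synthesis, had 0.62 ± 0.27 (SE). Rab9, a GTPase of late endosomes, had 0.99 ± 0.12 (SE). Of the genes listed as flanks, Gpm6b and Ofd1 lie before Trappc2 in gene order and Mid1 lies beyond Hccs. Gpm6b, Ofd1 and Mid1 had -0.12, 0.07 and -0.24, and Ofd1 turned to -0.13 without normalisation and to -0.04 after median centring. The labels do not give the ends of the copied segment, so whether Mid1 lies outside it was not shown. Over the 8 segment genes, the mean log2 signal was 9.43 to 9.53 in Yaa and 8.71 to 8.79 in wild type, and that of Tlr7 was 7.62 to 8.51 in Yaa and 6.85 to 7.31 in wild type.

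**Figure D3:**
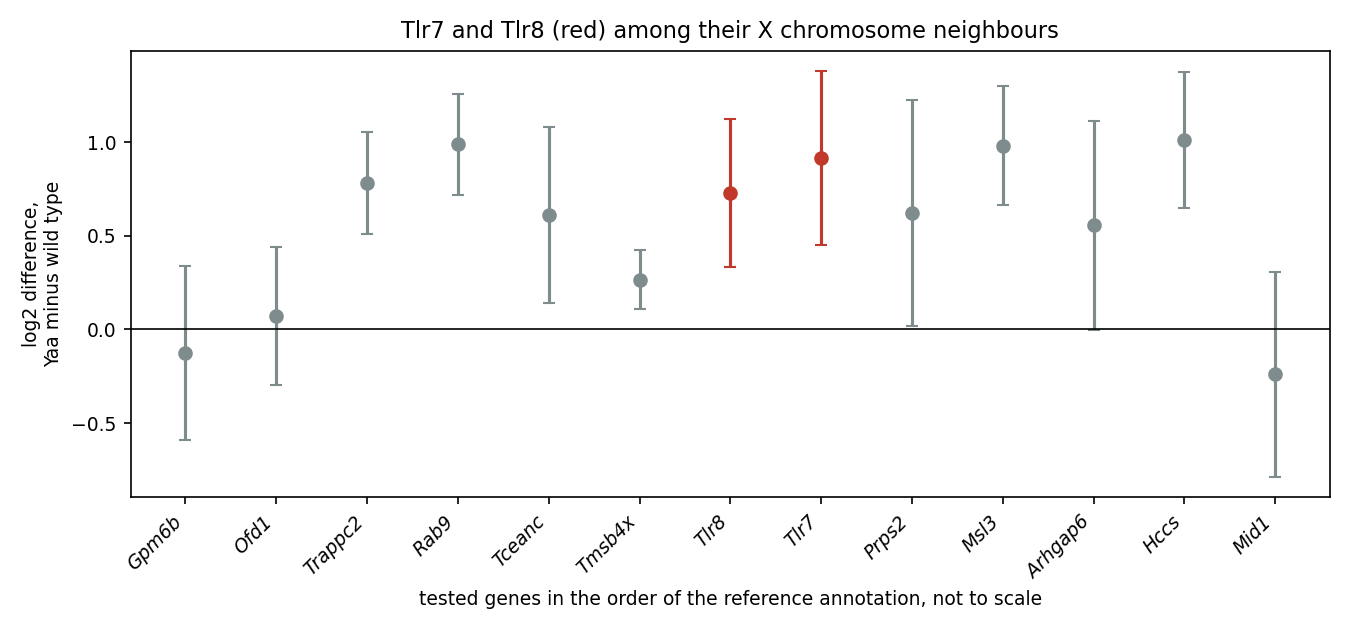
Log2 difference (Yaa minus wild type) with 95% limma intervals for the tested genes around Tlr8 and Tlr7 (red) in their order on the X chromosome, not to scale. The differences of all genes from Trappc2 to Hccs are above 0, and the intervals of Arhgap6 and of the outermost genes Gpm6b, Ofd1 and Mid1 include 0.

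The genes whose pattern over the 8 arrays was nearest to that of Tlr7 included segment genes and others. Nearness was the root mean square difference of log2 values centred on each gene's mean, over 10336 candidate genes, and the median candidate was at 0.60. Hccs, the haem lyase for cytochrome c, was nearest at 0.23, followed by Neurl3 at 0.25, Casp4, an inflammatory caspase, at 0.27, Rab9 at 0.28 and Dnaja1, a co-chaperone of heat shock proteins, at 0.28. Hccs and Rab9 lie in the segment, and Neurl3, Casp4 and Dnaja1 on chromosomes 1, 9 and 4, with log2 differences of 0.58, 0.58 and 0.55. Nearest to Tlr9 were the phosphatase methylesterase gene Ppme1 at 0.087, Ncbp2, of the nuclear cap-binding complex, at 0.11, Arhgap32 at 0.12, the monoamine oxidase gene Maoa at 0.12 and Polr2d, of RNA polymerase II, at 0.13, where the median candidate was at 0.38. These are descriptions of the same arrays, group difference included.

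Genes that fold, sort and cleave the receptors had differences on both sides of 0. Of 15 listed genes 14 were tested; limma called 0, 9 were higher and 5 lower, and the median log2 difference was 0.04 (0.03 without Yaa 3). Ctsl, an endosomal protease that cleaves the receptors, had 0.48 ± 0.16 (SE; limma adjusted p = 0.960). It was the 1 gene with an unadjusted p under 0.05, where 2.97% of all tested probe sets were higher at that threshold. Its signals were 626, 621, 802 and 513 in Yaa, against 402, 474, 404 and 521 in wild type, so Yaa 4 lay below wild type 4. Scarb2, a lysosomal membrane protein, had 0.30 ± 0.14 (SE; limma adjusted p = 0.997). It was the 1 gene of the list whose groups did not overlap, where 2.43% of all tested probe sets did so with Yaa higher. As deposited its groups overlapped, at 389, 490, 296 and 298 in Yaa against 297, 412, 316 and 352 in wild type. The Scarb2 difference was 0.07 there. The protease legumain (Lgmn) had 0.36 ± 0.18 (SE). The chaperones Hsp90b1 and Cnpy3 had 0.24 and 0.03, and Hsp90b1 had 0.51 without Yaa 3 (limma adjusted p = 0.301). Slc15a4, an endosomal transporter needed for Tlr7 and Tlr9 signalling, had -0.33 ± 0.19 (SE). The proteases Ctsb and Ctss had -0.07 and 0.06, and the AP-3 subunits Ap3b1, Ap3d1 and Ap3m1 had 0.03, -0.12 and -0.17. With the values as deposited 4 of the 14 were higher, with a median of -0.15, which is 0.04 above the array-wide median. Cnpy3, Ap3b1 and Ctss turned sign there, at -0.19, -0.19 and -0.05, and Cnpy3 and Ap3b1 also with median-centred arrays, at -0.10 each.

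Signalling genes downstream of the receptors also had differences on both sides of 0. Of 17 listed genes 14 were tested; limma called 0, 5 were higher and 9 lower, none had an unadjusted p under 0.05, and the median log2 difference was -0.05 (-0.0086 without Yaa 3). Myd88, the adaptor of Tlr7, Tlr8 and Tlr9, had 0.22 ± 0.15 (SE), and Ticam1, the adaptor of Tlr3, had 0.47 ± 0.24 (SE; limma adjusted p = 0.997 each). The transcription factors Irf7, Irf5 and Irf3 had 0.07, -0.04 and -0.18. The kinases Irak1, Irak2, Map3k7, Tbk1 and Ikbkb had 0.09, -0.05, -0.11, -0.13 and -0.41, and Ikbkb had -0.15 without Yaa 3. Myd88, Irak1 and Irf7 turned sign with the values as deposited, at -0.0069, -0.13 and -0.16, and Irak1 and Irf7 also with median-centred arrays, at -0.04 and -0.07.

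Among the other Toll-like receptors, 5 of 8 listed were tested and limma called 0, with a median log2 difference of 0.27 (0.24 without Yaa 3). Tlr13, an endosomal receptor for bacterial ribosomal RNA that also depends on Unc93b1, had signals of 101, 117, 178 and 68.6 in Yaa, against 84.9, 56.9, 98.5 and 73.4 in wild type. The groups overlapped, with Yaa 3 the highest and Yaa 4 below wild type 4, and the log2 difference was 0.44 ± 0.26 (SE; limma adjusted p = 0.997), and 0.24 without Yaa 3. Tlr2, a cell-surface receptor for lipoproteins, had 0.97 ± 0.29 (SE; limma adjusted p = 0.842) without overlap of the groups, and 0.69 without Yaa 3. Tlr1, its partner, had -0.98 ± 0.38 (SE; limma adjusted p = 0.997), and -0.62 without Yaa 3. The monocyte and macrophage markers, whose cells express Tlr2, averaged 8.61 to 9.93 in Yaa and 8.44 to 8.57 in wild type. All 7 tested were higher in mean, with a median log2 difference of 0.71 (0.33 without Yaa 3, with 6 of 7 higher). limma called 0 of the 7, and 1 with array weights, where 0.453% of all tested probe sets were called higher. At an unadjusted p under 0.05, 3 were higher, where 2.97% of all tested probe sets were. The groups did not overlap for 3, where 2.43% of all did so with Yaa higher. The part of these cells in the receptor values, Tlr7 and Tlr8 included, was not tested.

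**Figure D4:**
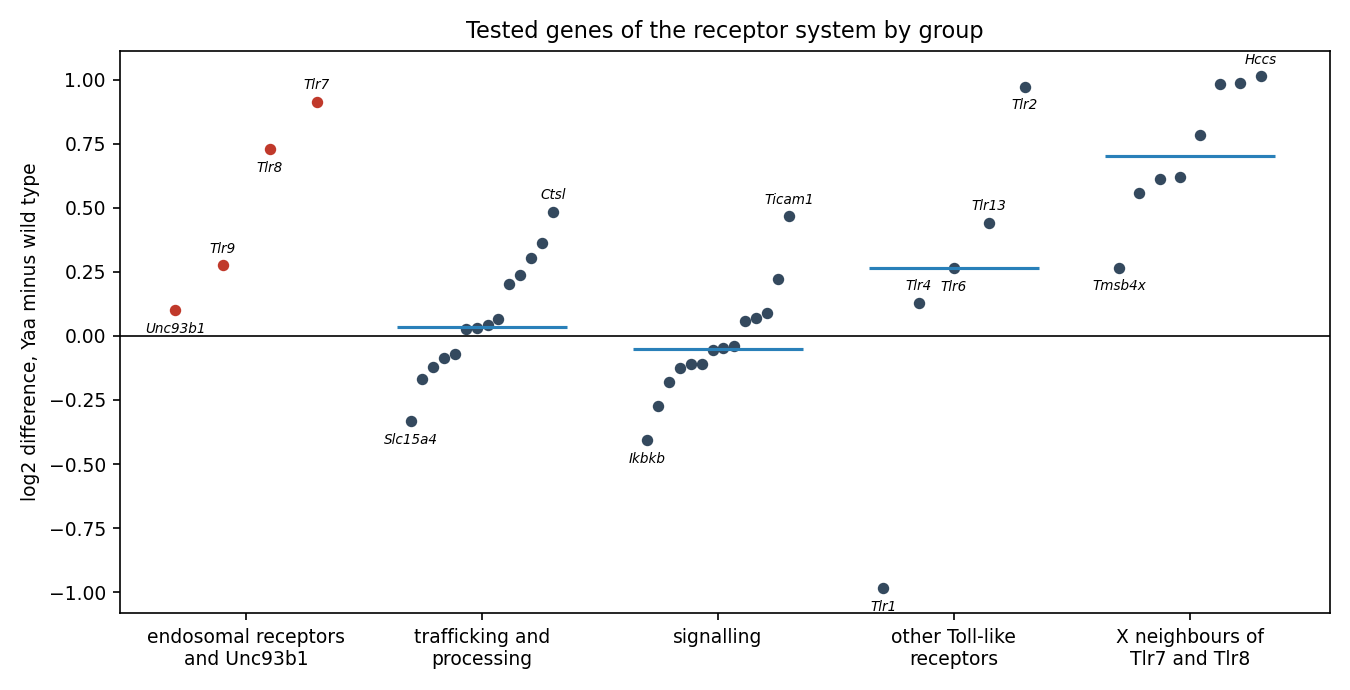
Log2 difference (Yaa minus wild type) of each tested gene in 5 groups, 1 point per gene and a blue line at the median of each of the 4 gene lists; points are spread sideways by rank. Trafficking and signalling genes scatter around 0 between -0.41 and 0.48, and the X neighbours lie between 0.27 and 1.01, with Tlr7 and Tlr8 in the same range.

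The same arrays held the markers of cell types known to use these receptors. The 5 tested markers of plasmacytoid dendritic cells, which respond to RNA and DNA through Tlr7 and Tlr9, averaged 6.59 to 7.09 in Yaa and 6.51 to 6.79 in wild type, with 0 of 5 called. The 6 tested conventional dendritic cell markers averaged 7.34 to 7.96 in Yaa and 7.36 to 7.89 in wild type, and Xcr1 and Clec9a, which define the Tlr3-rich subset, were not tested here. Neutrophil markers averaged 8.86 to 11.19 in Yaa and 8.44 to 9.21 in wild type, with all 8 tested markers higher in mean. The groups did not overlap for 3 of these 8, where 2.43% of all tested probe sets did so with Yaa higher. The lowest Yaa mean was that of Yaa 2, inside the wild-type range. Ngp, Camp and Ltf were lower in Yaa 2, at 1061, 280 and 186, than in any wild-type array. limma called 0 of the 8, and 7 with the array weights that also gave the Tlr7 call, where Yaa 2 had a weight of 0.218. With those weights 0.453% of all tested probe sets were called higher. The part of neutrophil content in the member values was not tested. NK cell markers averaged 7.06 to 8.66 in Yaa and 7.07 to 7.53 in wild type. Yaa 3 gave the highest of these means, and the other Yaa arrays reached 7.76. The median log2 difference of the NK markers was 0.49, with 5 of 5 higher, and 0.12 without Yaa 3, with 3 of 5 higher.

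**Figure D5:**
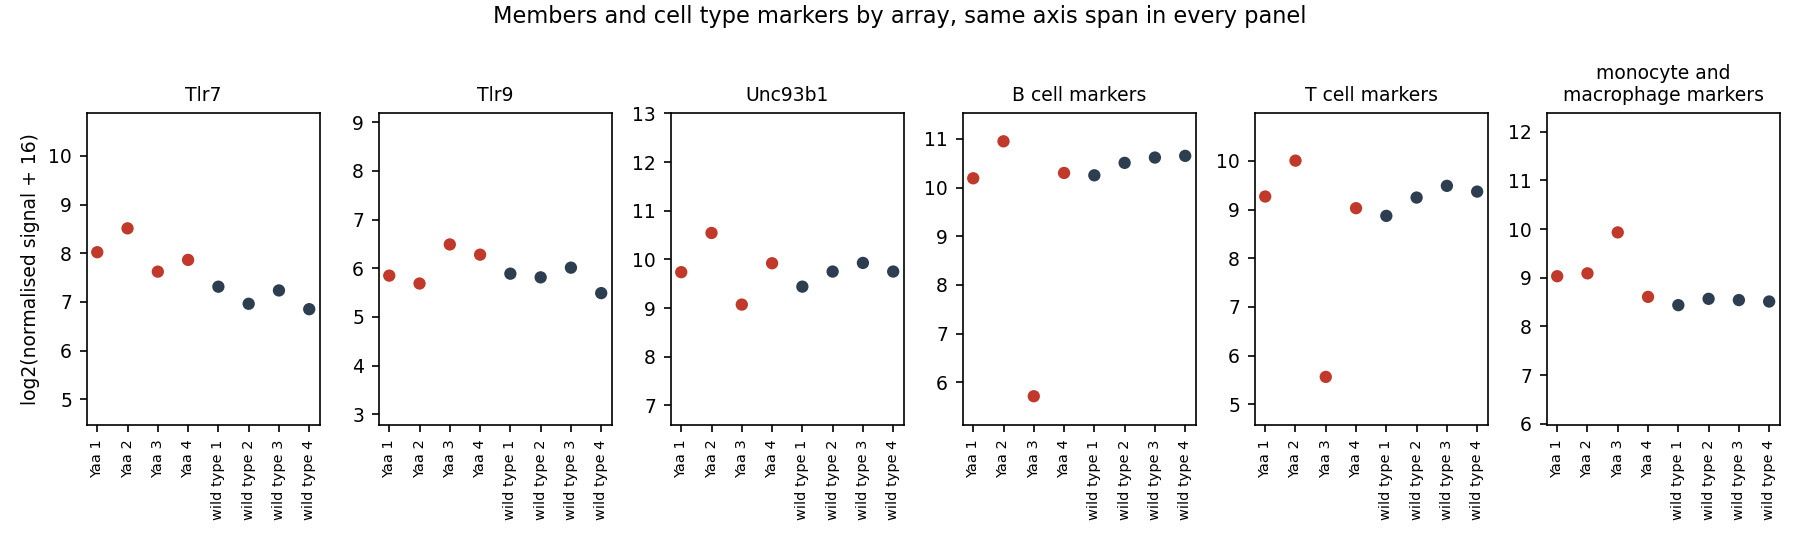
Log2(normalised signal + 16) of Tlr7, Tlr9 and Unc93b1 and the mean of 3 marker lists in each array, Yaa in red and wild type in dark blue, with an axis of the same span in every panel. In Yaa 3 the B cell and T cell markers are at 5.71 and 5.56, and Tlr7 and Tlr9 are at 7.62 and 6.49.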

How the data were processed

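Total RNA of 8 spleen cell samples was measured on 1 array each. The authors computed MAS5 signals with no log taken and deposited them as a linear intensity for every probe set, per the submitters' processing notes. The sources used here give no scaling target. Since 3 of the 8 trimmed means lay over 10% from their median, arrays were quantile normalised and transformed to log2(signal + 16). Array controls (64) and the dimmer part of the probe sets, up to the median of the mean over arrays, were not tested; 22518 remained. Yaa minus wild type was fitted in limma 3.58.1 (R 4.3.3) with lmFit and eBayes, using a trended prior variance, and adjusted by Benjamini-Hochberg over the 22518, with a threshold of 0.05. Exact permutation tests of single values were two-sided and ran over 70 arrangements with all 8 arrays, and over fewer where arrays were left out. The number of arrays limits the precision.

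Symbols came from the platform annotation, updated through Entrez IDs to GRCm38.p6, and the brightest tested probe set stood for a gene. Named are all member probe sets, genes of the listed pathways and X neighbours, and the 5 genes nearest to Tlr7 and to Tlr9. Members and lists were chosen with earlier results of these data known. Genes on the lists without a tested probe set were not analysed here. The limma procedure was tested on simulated data. No 2 arrays were identical. Figures were drawn with matplotlib 3.10.9.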

Additional observations from a re-analysis of the deposited data

Results flagged for a closer look

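None of the 8 member probe sets held an array far from the other 3 of its group by Dixon's test at the 95% level (critical value 0.829). Among the 46 groups of 4 examined, chance gives about 1 in 20, and 4 list means were marked. The B cell marker mean was 5.71 in Yaa 3 and 10.19 to 10.95 in the other Yaa arrays. The erythroid marker mean was 10.81 in Yaa 2 and 12.36 to 12.65 in the other Yaa arrays. The mean of the 2 tested pancreas markers was 8.09 in Yaa 3 and 6.57 to 6.64 in the other Yaa arrays. The mean of the other Toll-like receptors was 7.18 in wild type 3 and 6.95 to 6.97 in the other wild-type arrays.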

How the results depend on the processing

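Over 21 alternatives the Tlr7 log2 difference ran from 0.69 to 1.04 and over 19 that of Tlr8 from 0.40 to 0.99, all positive, and limma called 1 of them, Tlr7 with array weights (0.95). The exact permutation test, on unadjusted p, passed for Tlr7 (0.91) and Tlr8 (0.73). Tlr9 ran from 0.11 to 0.40 and was never called. Unc93b1 turned sign without normalisation (-0.13) and after median centring (-0.043). Leaving out single samples, it ran from -0.14 to 0.35. On the same basis Tlr3 ran from -0.61 to -0.37, and only without wild type 4 (-0.61) did its exact permutation p reach 0.0286. The Tlr7 difference then exceeded that of Tlr9 by 0.34 to 0.90, of Tlr3 by 1.15 to 1.59 and of Unc93b1 by 0.69 to 0.98, with exact permutation p of 0.0286 to 0.286 for Tlr9 and of 0.0286 to 0.0571 for the others. Without Yaa 2 and Yaa 3 the last 2 were 1.35 and 0.74 (exact permutation p = 0.0667, the smallest that design allows), and with log2(signal + 64) the Unc93b1 value was 0.63 (exact permutation p = 0.0857).

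Over all probe sets, limma called 7 with log2(signal + 1), 143 with array weights, 105 without Yaa 2 and Yaa 3, 10 at an adjusted p under 0.1, and 1 to 31 in fits that leave out 1 sample. The groups share replicate numbers, but same-numbered samples did not deviate together (correlations -0.37 to 0.02). With the replicate number as a block limma called 0, with 731 at an unadjusted p under 0.05, and the block changed no call of a member. Dim probe sets such as those of Tlr3 limit what can be shown.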
